A study of Rattus norvegicus with 12 samples.

Results

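Pdgfra, Pdgfrb, Colec11, Col1a1, Col1a2, Col3a1, Dcn, Lum, Des and Lrat are markers of hepatic stellate cells and fibroblasts. Their transcripts were followed in rat hepatocyte preparations through every probe set of the array whose single gene symbol in the platform annotation was 1 of these names. All 10 genes were found among the 14217 genes so named, on 14 of 31042 probe sets: 3 for Pdgfrb, 2 each for Col1a1 and Col1a2, and 1 for each remaining gene. The probe sets were matched by name, without reference to their values, and the 10 genes were listed with earlier results of these data known. The cells came from livers of rats whose strain the labels give as Fischer 334, were released with collagenase and went to RNA extraction without culture. Donors were heart-beating or had died 4, 16 or 30 h earlier, and each of the 4 groups held 3 animals with 1 array per animal. No source used here states the age of the rats. The study compared transcripts of hepatocytes taken at increasing intervals after death with those of heart-beating donors.

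Stellate cells lie between hepatocytes and the sinusoidal endothelium, store vitamin A as retinyl esters and, in an injured liver, turn into matrix-producing myofibroblasts. Platelet-derived growth factor drives their growth through its receptors, and fibrillar collagens and small leucine-rich proteoglycans are their best known matrix products. Portal fibroblasts share many of these genes, and most of them are not usual products of the hepatocyte.

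The preparations carried a strong hepatocyte signature. Alb, the gene of serum albumin, had a mean log2 signal of 14.50 both at 30 h and in heart-beating donors (1367555_at), close to the top of the scale, which ended at 14.51. A signal this near the top cannot show whether the Alb level changed. Beside Alb the marker transcripts were present at unequal strength. The Col3a1 signal lay above 93.7% to 98.8% of all probe sets on the 12 arrays, that of Colec11 above 94.6% to 97.2% and that of Pdgfra above 82.5% to 91.3%. Des and Lum lay below the middle of every array, above 42.9% to 48.1% and 18.9% to 45.7% of probe sets. These ranks place a signal on its array, and signals of different probe sets are not compared as levels. In bulk RNA such as this, a change in the number of stellate cells or fibroblasts and a change in their RNA per cell cannot be told apart.

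Against heart-beating donors, 7 of the 14 marker probe sets were higher at 30 h with adjusted p under 0.05 in limma, and 0 were lower. Of all probe sets, 19.7% were called in that comparison, 10.4% higher and 9.36% lower. The 7 belonged to Pdgfra, Pdgfrb, Colec11, Col1a1, Col1a2, Col3a1 and Lum. At 16 h 1 of 14 was higher, that of Colec11, where 4.67% of all probe sets were called and 3.18% were higher. At 4 h limma called 0 of 14 and 0.0226% of all probe sets. At an unadjusted p under 0.05, 4 of 14, all of collagens, had lower values at 4 h and 1 of 14, that of Dcn, higher, where 5.27% of all probe sets passed. Over the 3 intervals together the moderated F test called 10 of 14 marker probe sets and 21.3% of all probe sets. The median log2 difference of the 14 was -0.13 at 4 h, 0.30 at 16 h and 0.50 at 30 h, beside medians of 0.00, -0.02 and 0.01 over all probe sets. At 30 h the 3 arrays lay entirely above the 3 of the heart-beating donors for 6 of 14 marker probe sets and for 16.9% of all. At 16 h this held for 7 of 14 and 13.0% of all, and at 4 h for 0 of 14 and 7.23% of all, with 2 of 14 and 6.22% of all entirely below.

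**Figure D1:**
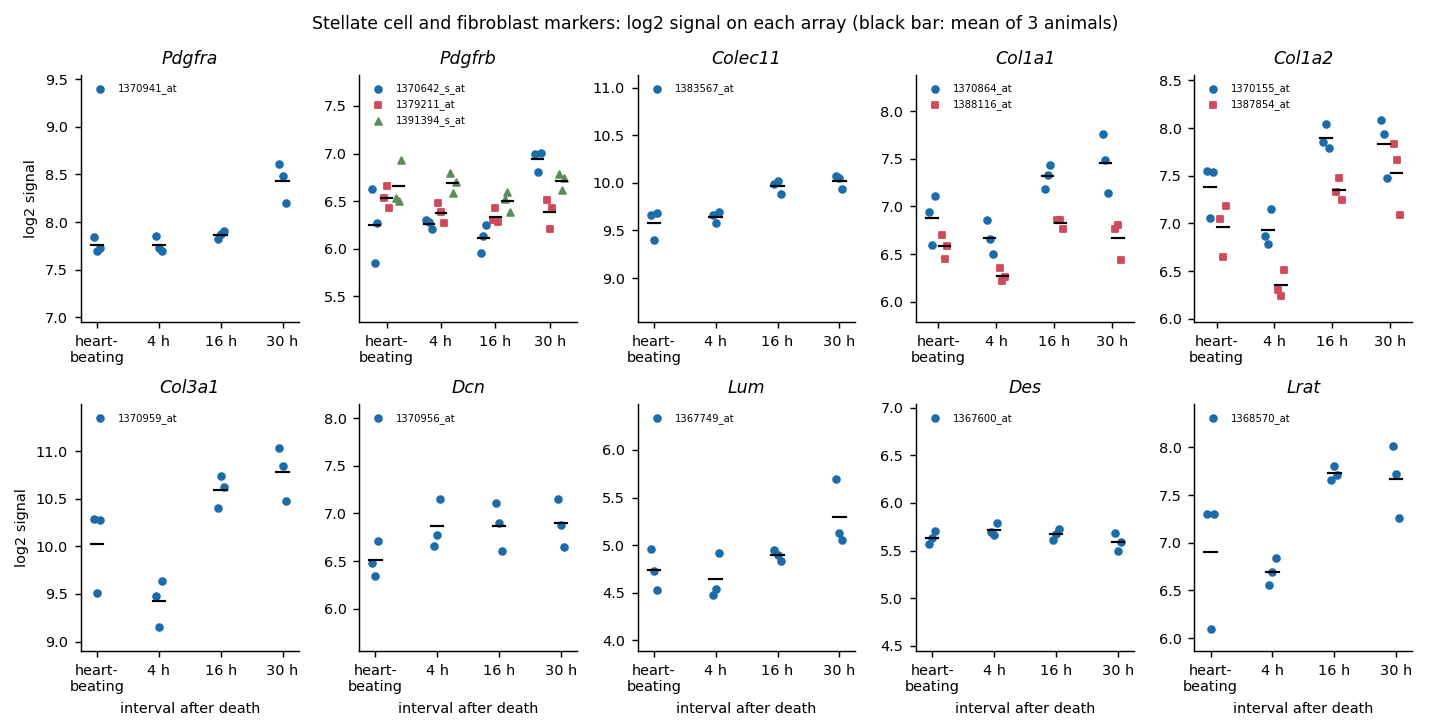
Log2 signal (vertical axis) of every marker probe set on each of the 12 arrays, grouped by interval after death (horizontal axis), with 1 panel per gene; symbols and colours separate probe sets of 1 gene, black bars are means of 3 animals, and the vertical ranges differ between panels. The collagen and Lrat points are lowest at 4 h or in 1 heart-beating donor and high at 16 and 30 h, Pdgfra lies apart only at 30 h, and Des is level.

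The RNA itself also differed between the groups. The 3' control probe set of Gapdh exceeded the 5' one by a log2 difference of 0.39 ± 0.08 in heart-beating donors, 0.38 ± 0.10 in 4 h animals, 1.05 ± 0.20 in 16 h animals and 1.97 ± 0.29 in 30 h animals (SD, n = 3 each). The same difference for Actb was 1.85 ± 0.05 in heart-beating donors, 1.71 ± 0.15 in 4 h animals, 2.21 ± 0.33 in 16 h animals and 2.87 ± 0.11 in 30 h animals. Both gaps, a sign of RNA breakdown, were wider at the intervals at which the markers were high. Within the 30 h group, animal 1, with the highest signal of its group for 12 of 14 marker probe sets, had the widest Gapdh gap (2.31) and the narrowest Actb gap (2.75). When the Gapdh gap entered the limma model as a covariate, 0 of 14 marker probe sets and 0% of all probe sets were called at 30 h against heart-beating donors. The standard error of the Pdgfra difference grew in that fit to 0.30, against 0.09 without the covariate. The Gapdh gap and the interval moved together, so their parts in the marker differences cannot be told apart in these 12 arrays.

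The sequence upstream of 6 of the 10 genes was available from RefSeq (build GRCr8), and 4 are shown. Of these genes, Col1a2 and Lrat were higher at 16 and 30 h than at 4 h, Pdgfra and Lum at 30 h only. Colec11, whose sequence is not shown, was by limma also higher than at 4 h, by 0.32 at 16 h (adjusted p = 0.0298) and 0.38 at 30 h (adjusted p = 0.00577). Each run is the 250 bases before the annotated start, read 5′ to 3′ on the gene's strand, with capitals on matches to TATAAA (the TATA box), CCAAT (the CCAAT box) or GGGCGG (the GC box) on either strand.
Col1a2, chr4:33518307-33518556, plus strand: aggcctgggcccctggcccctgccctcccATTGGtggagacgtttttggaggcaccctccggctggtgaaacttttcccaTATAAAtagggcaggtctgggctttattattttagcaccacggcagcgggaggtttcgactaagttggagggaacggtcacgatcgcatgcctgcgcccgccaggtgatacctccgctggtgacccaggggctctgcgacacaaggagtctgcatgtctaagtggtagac
Lrat, chr2:170571213-170571462, minus strand: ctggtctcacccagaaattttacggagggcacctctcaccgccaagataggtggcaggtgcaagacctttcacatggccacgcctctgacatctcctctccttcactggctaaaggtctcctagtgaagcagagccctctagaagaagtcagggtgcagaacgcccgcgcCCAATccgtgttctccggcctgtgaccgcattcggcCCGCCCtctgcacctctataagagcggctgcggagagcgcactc
Pdgfra, chr14:33408517-33408766, minus strand: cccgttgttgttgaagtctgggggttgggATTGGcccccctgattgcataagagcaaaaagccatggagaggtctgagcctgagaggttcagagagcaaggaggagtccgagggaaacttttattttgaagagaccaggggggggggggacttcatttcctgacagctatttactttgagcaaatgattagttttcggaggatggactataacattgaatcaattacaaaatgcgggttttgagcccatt
Lum, chr7:34245456-34245705, plus strand: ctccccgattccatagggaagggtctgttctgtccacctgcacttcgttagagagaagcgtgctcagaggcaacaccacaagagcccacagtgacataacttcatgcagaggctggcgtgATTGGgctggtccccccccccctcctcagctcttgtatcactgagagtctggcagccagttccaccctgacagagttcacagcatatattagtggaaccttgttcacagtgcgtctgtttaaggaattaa
All 4 runs held a CCAAT match, read as ATTGG from 221 to 217 bases before the start in both Col1a2 and Pdgfra, as ATTGG from 130 to 126 in Lum and as CCAAT from 80 to 76 in Lrat. Of 33469 promoters of the same length, 34% hold this motif. Of the 6 marker promoters 4 did, and these are the 4 shown, so the match in all 4 runs describes the choice of runs. The TATA match of Col1a2, from 170 to 165 bases before the start, is a motif found in 12.9% of promoters and in 1 of the 6. A GC match was present in Lrat, from 44 to 39, and in Des, where there were 3, beside 30.5% of all promoters. The Colec11 window held none of the 3 motifs. A match of letters is a description of the sequence and not a site of binding. Any bearing of these motifs on the time courses was not tested. Sequences for Pdgfrb, Col1a1, Col3a1 and Dcn are not shown here.

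Of the receptors for platelet-derived growth factor, Pdgfra was higher at 30 h, while the probe sets of Pdgfrb did not move alike. Pdgfra encodes the alpha receptor, which quiescent stellate cells and fibroblasts carry on their surface. Its log2 signal was 7.85, 7.69 and 7.73 in heart-beating donors, 7.86, 7.73 and 7.70 in 4 h animals, 7.82, 7.87 and 7.91 in 16 h animals and 8.61, 8.48 and 8.20 in 30 h animals. The 9 arrays of the other groups overlapped, and all 3 of the 30 h arrays lay above them. Pdgfra averaged 8.43 ± 0.21 at 30 h and 7.76 ± 0.08 in heart-beating donors (SD, n = 3 each), a log2 difference of 0.67 (SE 0.09, 1.60-fold, adjusted p = 0.000327). It was also higher at 30 h than at 4 h, by 0.67 (SE 0.09, adjusted p = 0.000321), and than at 16 h, by 0.56 (SE 0.09, adjusted p = 0.00279). At 16 h the difference from heart-beating donors was 0.11, with a 95% confidence interval from -0.09 to 0.31, and at 4 h it was 0.01 (-0.19 to 0.21). The 3 calls of Pdgfra held without any single array, with differences from 0.59 to 0.79 for 30 h against heart-beating donors.

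Pdgfrb, the gene of the beta receptor that is the main growth receptor of activated stellate cells, was read by 3 probe sets that did not move alike. On 1370642_s_at the log2 signal was 6.62, 5.85 and 6.27 in heart-beating donors, 6.30, 6.28 and 6.21 in 4 h animals, 5.95, 6.14 and 6.25 in 16 h animals and 7.00, 6.81 and 7.01 in 30 h animals. The 30 h arrays stood above all others on this probe set, and heart-beating donor 2 was the lowest of the 12. The mean at 30 h was 6.94 ± 0.11 against 6.25 ± 0.39 in heart-beating donors, a log2 difference of 0.69 (SE 0.15, 1.61-fold, adjusted p = 0.00539), and the difference between 30 h and 16 h was 0.82 (SE 0.15, adjusted p = 0.00433). Both calls held without any single array.

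On the second Pdgfrb probe set, 1391394_s_at, the values were 6.53, 6.50 and 6.93 in heart-beating donors, 6.80, 6.58 and 6.70 in 4 h animals, 6.53, 6.59 and 6.39 in 16 h animals and 6.79, 6.61 and 6.75 in 30 h animals. The groups overlapped, apart from 30 h above 16 h, and the difference between 30 h and heart-beating donors was 0.06 (95% confidence interval -0.17 to 0.29). The third, 1379211_at, had values of 6.53, 6.66 and 6.42 in heart-beating donors, 6.48, 6.39 and 6.27 in 4 h animals, 6.30, 6.43 and 6.28 in 16 h animals and 6.51, 6.21 and 6.43 in 30 h animals, with a difference of -0.16 (-0.35 to 0.04) at 30 h. In a test of the pair, added after the values were seen, the difference of 1370642_s_at between 30 h and heart-beating donors exceeded that of 1391394_s_at by 0.63 (SE 0.16, adjusted p = 0.00454). Unequal change between probe sets of a gene was common at 30 h, with 34.8% of 6609 such pairs called. The rise of Pdgfrb therefore rests on 1 of its 3 probe sets.

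The ligands of these receptors were faint on the array. Of 4 listed ligand genes 3 were measured, each with a mean signal below the array median. Pdgfa was higher at 30 h than in heart-beating donors, by 0.21 (SE 0.07, adjusted p = 0.0436), while Pdgfc had a difference of -0.17 and Pdgfd of -0.02 in the same comparison, neither of them called. Against 4 h, Pdgfc was lower at 30 h, by a log2 difference of -0.31 (SE 0.08, adjusted p = 0.0112).

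**Figure D2:**
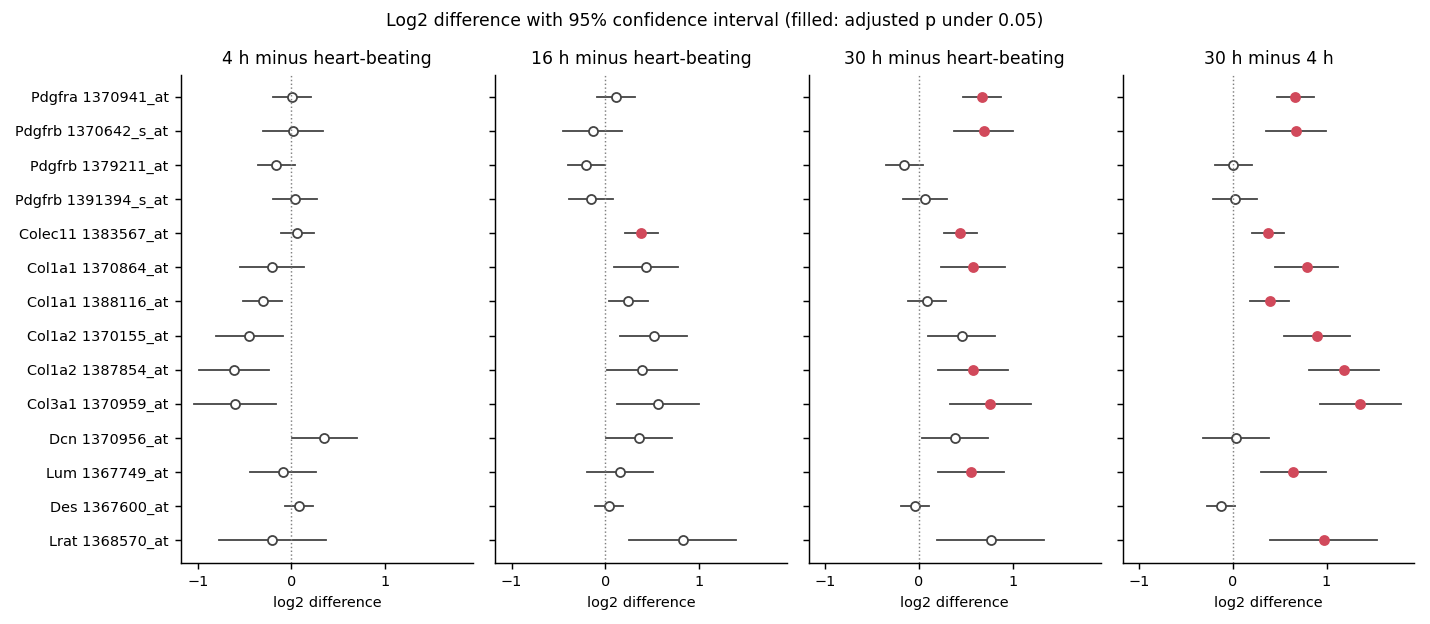
Log2 difference of each marker probe set (points) with its 95% confidence interval (bars) from the limma model, for 4, 16 and 30 h each minus heart-beating donors and for 30 h minus 4 h; filled points have adjusted p under 0.05. At 4 h 0 of 14 points are filled and the 5 collagen points lie left of 0, at 16 h the Colec11 point is filled, at 30 h 7 are filled, and in 30 h minus 4 h 10 are filled.

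Colec11, the gene of a collectin that binds sugars and feeds the lectin pathway of complement, was the only marker called at 16 h against heart-beating donors. Its log2 signal was 9.66, 9.40 and 9.68 in heart-beating donors, 9.66, 9.58 and 9.69 in 4 h animals, 9.99, 10.02 and 9.89 in 16 h animals and 10.07, 10.05 and 9.94 in 30 h animals. All 6 of the 16 h and 30 h arrays lay above all 6 of the other arrays. The difference from heart-beating donors was 0.38 at 16 h (SE 0.08, 1.30-fold, adjusted p = 0.0181) and 0.44 at 30 h (SE 0.08, 1.35-fold, adjusted p = 0.00223). At 4 h it was 0.06 (95% confidence interval -0.11 to 0.24). The 30 h call held without any single array. The 16 h call was lost without heart-beating donor 2 (adjusted p = 0.0594), without 16 h animal 1 (0.0712) and without 16 h animal 2 (0.0901), and also after cyclic loess (0.0553) or a further quantile normalization (0.0789). Against 4 h, Colec11 was higher by 0.32 at 16 h (SE 0.08, adjusted p = 0.0298) and by 0.38 at 30 h (SE 0.08, adjusted p = 0.00577). The 16 h call against 4 h was lost whichever 4 h animal was left out, with adjusted p from 0.0564 to 0.108. It was also lost without 16 h animal 1 (0.0984) or 2 (0.115). The same held after cyclic loess (0.135), a further quantile normalization (0.174) or with variance trend and robust settings (0.054).

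Other genes of the lectin pathway did not follow Colec11 as a group. Of 10 probe sets of 5 measured genes, 2 were higher and 3 lower at 30 h than in heart-beating donors (50%, beside 19.7% of all). Mbl1, which encodes a mannose-binding lectin of hepatocytes, was lower, by -1.16 (SE 0.13, adjusted p = 6.9e-05). Mbl2, of the second such lectin, was lower on 1387528_at, by -1.11 (SE 0.08, adjusted p = 4.78e-06), and had a difference of -0.02 (adjusted p = 0.895) on 1379240_at. Masp1, a protease that these lectins activate, was higher on 1390585_at by 0.74 (SE 0.11, adjusted p = 0.000589), and its other probe sets had differences of -0.23 and 0.21, neither of them called. Masp2, the second protease of the pathway, was lower on 1 probe set (-0.96, 1371098_a_at), higher on another (0.47, 1393156_at) and not called on 1371025_at (0.17).

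The fibrillar collagens had their lowest means at 4 h and were higher at 16 and 30 h. Col3a1 encodes the chain of type III collagen, and Col1a1 and Col1a2 encode the chains of type I collagen. Col3a1 had a log2 signal of 10.29, 9.51 and 10.28 in heart-beating donors, 9.48, 9.16 and 9.63 in 4 h animals, 10.40, 10.74 and 10.63 in 16 h animals and 11.04, 10.84 and 10.48 in 30 h animals. Every 16 h and 30 h array was above every array of the other groups, and heart-beating donor 2 lay among the 4 h animals. Against 4 h, Col3a1 was higher by 1.16 at 16 h (SE 0.20, 2.24-fold, adjusted p = 0.00439) and by 1.36 at 30 h (SE 0.20, 2.57-fold, adjusted p = 0.000464), the widest differences of all markers in those comparisons. Against heart-beating donors it was higher by 0.76 at 30 h (SE 0.20, 1.69-fold, adjusted p = 0.0177). This call was lost without heart-beating donor 2 (0.50, adjusted p = 0.0588) and without 30 h animal 1 (0.63, adjusted p = 0.0663). The mean at 4 h was 9.42 ± 0.24 and in heart-beating donors 10.03 ± 0.44, a difference of -0.60 (SE 0.20, adjusted p = 0.907).

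Both probe sets of Col1a2 had their lowest mean at 4 h, with the highest mean at 30 h on 1387854_at and at 16 h on 1370155_at. On 1387854_at the log2 signal was 7.04, 6.65 and 7.18 in heart-beating donors, 6.30, 6.24 and 6.51 in 4 h animals, 7.33, 7.48 and 7.25 in 16 h animals and 7.83, 7.67 and 7.09 in 30 h animals. All 4 h values were the lowest of the 12, and 30 h animal 3 lay within the range of the heart-beating donors. On 1370155_at the values were 7.55, 7.05 and 7.54 in heart-beating donors, 6.86, 6.79 and 7.15 in 4 h animals, 7.86, 8.04 and 7.79 in 16 h animals and 8.08, 7.94 and 7.48 in 30 h animals. Here the 4 h range reached into that of the heart-beating donors through donor 2. Relative to 4 h, 1387854_at was higher by 1.00 at 16 h (SE 0.17, 2.00-fold, adjusted p = 0.00439) and by 1.18 at 30 h (SE 0.17, 2.27-fold, adjusted p = 0.000446). The corresponding differences of 1370155_at were 0.96 (SE 0.16, adjusted p = 0.00395) and 0.90 (SE 0.16, adjusted p = 0.00189). In the same test of a pair as for Pdgfrb, the 30 h minus 4 h difference of 1387854_at exceeded that of 1370155_at by 0.28 (SE 0.09, adjusted p = 0.0253). In that comparison 35.3% of all pairs were called. For 30 h minus heart-beating donors the excess was 0.12 (adjusted p = 0.351). Relative to heart-beating donors at 30 h, 1387854_at was higher by 0.57 (SE 0.17, adjusted p = 0.0337), and 1370155_at had a difference of 0.45 (SE 0.16, adjusted p = 0.0705). The first call was lost without heart-beating donor 1 (adjusted p = 0.058) or 2 (0.136) and without 30 h animal 1 (0.125) or 2 (0.0987). Without 30 h animal 3, 1370155_at was called at 30 h (adjusted p = 0.0113) and at 16 h (adjusted p = 0.048) against heart-beating donors. At 4 h minus heart-beating donors the differences were -0.61 and -0.45, with adjusted p of 0.766 and 0.921.

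Col1a1 also had 2 probe sets, and they parted at 30 h. On 1370864_at the log2 signal was 6.94, 6.60 and 7.11 in heart-beating donors, 6.86, 6.65 and 6.51 in 4 h animals, 7.18, 7.33 and 7.44 in 16 h animals and 7.76, 7.49 and 7.14 in 30 h animals. On 1388116_at it was 6.70, 6.45 and 6.59 in heart-beating donors, 6.35, 6.21 and 6.26 in 4 h animals, 6.86, 6.85 and 6.76 in 16 h animals and 6.76, 6.80 and 6.44 in 30 h animals. The 16 h arrays lay above those of the heart-beating donors on both, and the 30 h arrays on the first alone. Against heart-beating donors at 30 h, 1370864_at was higher by 0.58 (SE 0.16, 1.49-fold, adjusted p = 0.0201), and 1388116_at had a difference of 0.09 (95% confidence interval -0.12 to 0.29). The difference between the probe sets, 1388116_at minus 1370864_at, was -0.49 (SE 0.13, adjusted p = 0.00516). Both were higher than at 4 h, by 0.64 (adjusted p = 0.0244) and 0.55 (adjusted p = 0.00443) at 16 h and by 0.79 (adjusted p = 0.00339) and 0.39 (adjusted p = 0.0111) at 30 h. The call of 1370864_at against heart-beating donors was lost without heart-beating donor 2 (adjusted p = 0.085), 30 h animal 1 (0.0767) or 30 h animal 2 (0.0513). Its call at 16 h against 4 h was lost without 4 h animal 2 (adjusted p = 0.0748) or 3 (0.0936) and without 16 h animal 2 (0.0846) or 3 (0.0746).

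**Figure D3:**
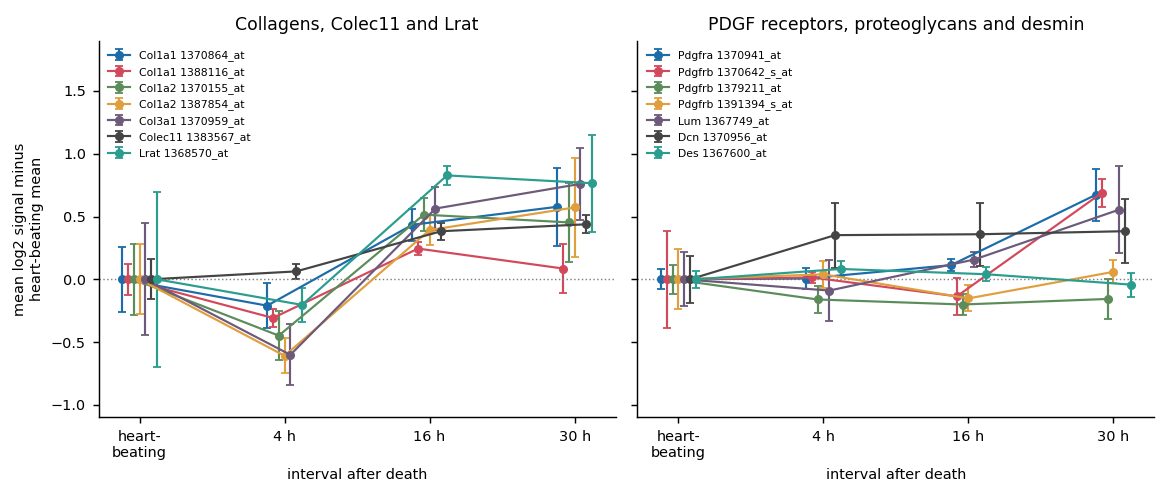
Mean log2 signal minus the mean of the heart-beating donors (vertical axis) by interval after death (horizontal axis, equally spaced groups), for all 14 marker probe sets; error bars are the SD of 3 animals. Collagens and Lrat dip below 0 at 4 h and lie above it at 16 and 30 h, whereas Pdgfra, Pdgfrb 1370642_s_at and Lum lie clearly above it at 30 h alone.

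The comparisons with 4 h held more marker calls than those with heart-beating donors. At 16 h 7 of 14 marker probe sets were higher than at 4 h, beside 7.82% of all probe sets called and 5.31% higher, and at 30 h 10 of 14 were higher, beside 18.9% called and 10.3% higher. In neither was a marker probe set lower, beside 2.52% of all at 16 h and 8.62% at 30 h. The median difference of the 14 was 0.28 at 16 h minus 4 h and 0.66 at 30 h minus 4 h, beside medians of -0.03 and 0.00 over all probe sets. Arrays were entirely above those of the 4 h animals for 7 of 14 at 16 h, with 14.6% of all, and for 10 of 14 at 30 h, with 16.0% of all. Between 30 h and 16 h, 2 of 14 were higher, Pdgfra and Pdgfrb 1370642_s_at, beside 10.2% of all probe sets called and 4.29% higher, and the median difference was 0.10 beside 0.03 over all. Each of these comparisons shares its arrays with the comparisons against heart-beating donors, so the counts are not independent. The SD over animals was smaller at 4 h than in heart-beating donors for 11 of 14 marker probe sets, as for Col3a1 (0.24 against 0.44) and Lrat (0.14 against 0.69). It was larger for the 3 of Dcn (0.26 against 0.18), Lum (0.24 against 0.21) and Pdgfra (0.0832 against 0.0804). Over all probe sets the median SD was 0.0807 at 4 h and 0.0754 in heart-beating donors.

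The other collagens on the array were called in both directions. Of 23 probe sets of 13 collagen genes outside the marker set, 7 were higher and 2 lower at 30 h than in heart-beating donors, 39.1% against the 19.7% of all probe sets, with a median difference of 0.25. Against 4 h, 12 were higher and 5 lower at 30 h (73.9%, beside 18.9% of all), and 6 were higher and 0 lower at 16 h (26.1%, beside 7.82% of all). Col18a1, of a collagen of vessel basement membranes, was higher on 1388459_at, by 0.62 at 16 h (SE 0.11, adjusted p = 0.00697) and by 0.47 at 30 h (SE 0.11, adjusted p = 0.00674), and on 1388143_at had a difference of -0.20 at 30 h (adjusted p = 0.136). Col14a1, a collagen that decorates fibrils, was higher at 30 h by 0.64 (SE 0.12, adjusted p = 0.00287) on 1376105_at, with 0.25 (adjusted p = 0.0643) on its second probe set. Col6a1, of the microfibrillar type VI collagen, was higher by 0.48 (SE 0.11, adjusted p = 0.0079). Col5a2, of the type V collagen that joins type I fibrils, was higher by 0.60 (SE 0.17, adjusted p = 0.0285) on 1370895_at, with 0.42 (adjusted p = 0.082) on the other. The 2 probe sets that were lower belonged to Col16a1 (-0.20) and Col6a3 (-0.29, 1396055_at), and another Col6a3 probe set, 1389966_at, had a difference of 0.38 (adjusted p = 0.079). These 2 genes were chosen for naming after their values were seen.

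The proteoglycans Dcn and Lum and other matrix proteins gave a mixed picture. Decorin, from Dcn, and lumican, from Lum, are small leucine-rich proteoglycans that bind collagen fibrils, and their genes are neighbours on rat chromosome 7. Dcn had a log2 signal of 6.48, 6.35 and 6.71 in heart-beating donors, 6.66, 6.77 and 7.15 in 4 h animals, 7.10, 6.90 and 6.61 in 16 h animals and 7.16, 6.88 and 6.65 in 30 h animals. The groups overlapped throughout, and limma called no difference: 4 h animals were 0.35 above heart-beating donors (95% confidence interval 0.00 to 0.70, adjusted p = 0.938), 16 h animals 0.36 (interval 0.01 to 0.71, adjusted p = 0.247) and 30 h animals 0.38 (interval 0.03 to 0.73, adjusted p = 0.121). Unlike the collagens, the Dcn mean at 4 h was above that of the heart-beating donors.

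Lum had values of 4.96, 4.73 and 4.53 in heart-beating donors, 4.48, 4.54 and 4.92 in 4 h animals, 4.95, 4.90 and 4.83 in 16 h animals and 5.69, 5.13 and 5.06 in 30 h animals. The 30 h arrays were above all others, and animal 1 stood apart at the top. The difference between 30 h and heart-beating donors was 0.56 (SE 0.16, 1.47-fold, adjusted p = 0.0286), and that between 30 h and 4 h was 0.64 (SE 0.16, adjusted p = 0.0132). The first call was lost without 30 h animal 1 (0.36, adjusted p = 0.0956) and without heart-beating donor 2 (adjusted p = 0.0691) or 3 (adjusted p = 0.121). The second was lost without 4 h animal 1 (adjusted p = 0.0586) or 2 (adjusted p = 0.0528).

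Of 27 probe sets of 15 other matrix genes, 8 were higher and 1 lower at 30 h than in heart-beating donors (33.3%, beside 19.7% of all). Against 4 h, 9 were higher and 0 lower at 30 h (33.3%, beside 18.9% of all). Nid1, which encodes the basement membrane linker nidogen, was higher than in heart-beating donors by 0.74 (SE 0.20, adjusted p = 0.0174) on 1371518_at, and Fbn1, of fibrillin microfibrils, by 0.68 (SE 0.16, adjusted p = 0.0105) on 1368829_at. Their second probe sets had differences of -0.03 and 0.07, not called. Sparc, a collagen-binding glycoprotein, was higher on both probe sets at 30 h, by 0.79 (SE 0.20, adjusted p = 0.0142) and 0.65 (SE 0.17, adjusted p = 0.0193), and already at 16 h, by 0.80 (adjusted p = 0.0411) and 0.70 (adjusted p = 0.0403). Ogn, of the same proteoglycan family as Lum, was higher at 30 h by 0.85 (SE 0.17, adjusted p = 0.00328) on 1376749_at and by 0.77 (adjusted p = 0.00326) on 1390450_a_at, and had differences of 0.25 and 0.11 on 2 further probe sets, not called.

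Lrat and Des are classical markers of the vitamin A storing stellate cell. Between pairs of groups, Lrat was called against 4 h alone and Des in no comparison. The genes were not tested against each other. Lrat encodes the acyltransferase that turns retinol into retinyl ester. Its log2 signal was 7.30, 6.10 and 7.30 in heart-beating donors, 6.56, 6.69 and 6.84 in 4 h animals, 7.66, 7.81 and 7.71 in 16 h animals and 8.02, 7.72 and 7.26 in 30 h animals. The 16 h arrays lay above all arrays of heart-beating donors and 4 h animals, and heart-beating donor 2 was the lowest of the 12. Against 4 h, Lrat was higher by 1.03 at 16 h (SE 0.26, 2.04-fold, adjusted p = 0.0312) and by 0.97 at 30 h (SE 0.26, 1.96-fold, adjusted p = 0.0208). Against heart-beating donors the differences were 0.83 at 16 h (SE 0.26, adjusted p = 0.0991) and 0.77 at 30 h (SE 0.26, adjusted p = 0.0599), and neither was called. The 16 h call was lost whichever single 4 h or 16 h animal was left out, with adjusted p from 0.0613 to 0.107. The 30 h call was lost without 4 h animal 1 (0.0711) or 2 (0.0575) and without 30 h animal 1 (0.0787) or 2 (0.0566). The difference of 0.77 between 30 h and heart-beating donors was called without heart-beating donor 1 (0.97, adjusted p = 0.036) or 3 (0.97, adjusted p = 0.0408), without 30 h animal 3 (0.97, adjusted p = 0.0277) and when only the upper 50% of probe sets entered the test (adjusted p = 0.044). Without heart-beating donor 2 it was 0.36.

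Des, the gene of the intermediate filament desmin, was level. Its values were 5.57, 5.63 and 5.70 in heart-beating donors, 5.70, 5.66 and 5.79 in 4 h animals, 5.61, 5.68 and 5.73 in 16 h animals and 5.69, 5.49 and 5.59 in 30 h animals, and all groups overlapped. The difference from heart-beating donors was 0.08 in 4 h animals (95% confidence interval -0.07 to 0.23), 0.04 in 16 h animals (interval -0.11 to 0.19) and -0.04 in 30 h animals (interval -0.19 to 0.11). With a signal below the median of the array, Des gives a weak reading in this preparation.

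Genes that handle retinoids were called in a share near that of all probe sets. Of 21 probe sets of 14 genes, 0 were higher and 3 lower at 30 h than in heart-beating donors (14.3%, beside 19.7% of all, 10.4% higher and 9.36% lower). The 3 belonged to Dgat1, an acyltransferase that can also esterify retinol (-0.48, adjusted p = 0.00117), Rdh10, a retinol dehydrogenase (-0.49, adjusted p = 0.0145, with -0.09 and no call on its second probe set), and Rxra, a retinoid receptor that hepatocytes express too (-0.40, adjusted p = 0.0192). Bco1, which cleaves carotene, was higher at 16 h than at 4 h, by 0.26 (SE 0.06, adjusted p = 0.0276).

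Further markers of stellate cells were called about as often as all probe sets in either direction, but each call at 30 h was higher. Of 22 probe sets of 17 such genes, 5 were higher and 0 lower at 30 h than in heart-beating donors, with a median difference of 0.15. This was 22.7%, beside 19.7% of all probe sets called, 10.4% higher and 9.36% lower. Steap4, a metalloreductase, was higher by 0.71 (SE 0.13, adjusted p = 0.00197), Abcc9, a subunit of potassium channels, by 0.50 (SE 0.11, adjusted p = 0.00531) on 1374171_at, Reln, of the secreted glycoprotein reelin, by 0.47 (SE 0.11, adjusted p = 0.00932) on 1373957_at, and Pth1r, the parathyroid hormone receptor, by 0.44 (SE 0.10, adjusted p = 0.00552) on 1370259_a_at. Ngfr, a nerve growth factor receptor (0.13), and the transcription factor Hand2 (-0.04 and -0.01) were not called. The other probe sets of Reln (0.06), Pth1r (0.07) and Abcc9 (-0.10 and 0.16) were not called either.

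Portal fibroblast markers did not rise as a group. Of 20 probe sets of 13 genes, 2 were higher and 5 lower at 30 h than in heart-beating donors, with a median of 0.01. This was 35%, beside 19.7% of all probe sets called, 10.4% higher and 9.36% lower. Mgp, an inhibitor of calcification, was higher by 0.63 (SE 0.09, adjusted p = 0.000517) and Mfap4, a microfibril protein, by 0.34 (SE 0.10, adjusted p = 0.0323). Dpt, of the matrix protein dermatopontin, was lower on both probe sets, by -0.69 (SE 0.16, adjusted p = 0.00833) and -0.37 (SE 0.12, adjusted p = 0.0437), and Cd248 by -0.26 (SE 0.07, adjusted p = 0.0211) on 1375470_at, with 0.05 and no call on its second probe set. The defining genes Thy1 (-0.10 on 1369651_at), Fbln1 (0.04 and 0.03) and Fbln2 (0.07) were not called.

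Genes of the contractile, activated state were called in a share near that of all probe sets. Of 23 probe sets of 14 genes, 3 were higher and 1 lower at 30 h than in heart-beating donors (17.4%, beside 19.7% of all). Acta2, the smooth muscle actin of myofibroblasts, was lower at 16 h, by -0.37 (SE 0.10, adjusted p = 0.0469), and had a difference of -0.12 at 30 h. Ccn2, a connective tissue growth factor, was higher at 16 h by 1.18 (SE 0.26, adjusted p = 0.0231) and had a difference of 0.18 at 30 h. Tpm1, a tropomyosin gene, was lower on 1 probe set (-0.69, 1370288_a_at) and higher on another (0.49, 1395794_at), with 5 more not called. The other 2 probe sets that were higher belonged to Myl9, a myosin light chain (0.41, adjusted p = 0.0215), and Vim, the intermediate filament vimentin (0.41, adjusted p = 0.0399), of which Vim was named after its values were seen. Myh11, a smooth muscle myosin, was lower at 16 h than at 4 h on 1370896_a_at, by -0.29 (SE 0.07, adjusted p = 0.0238), and had differences from heart-beating donors of 0.00 and -0.17 at 30 h on its 2 probe sets. Tagln, an actin-binding protein of the same cells, had a difference of 0.18 at 30 h and was not called.

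**Figure D4:**
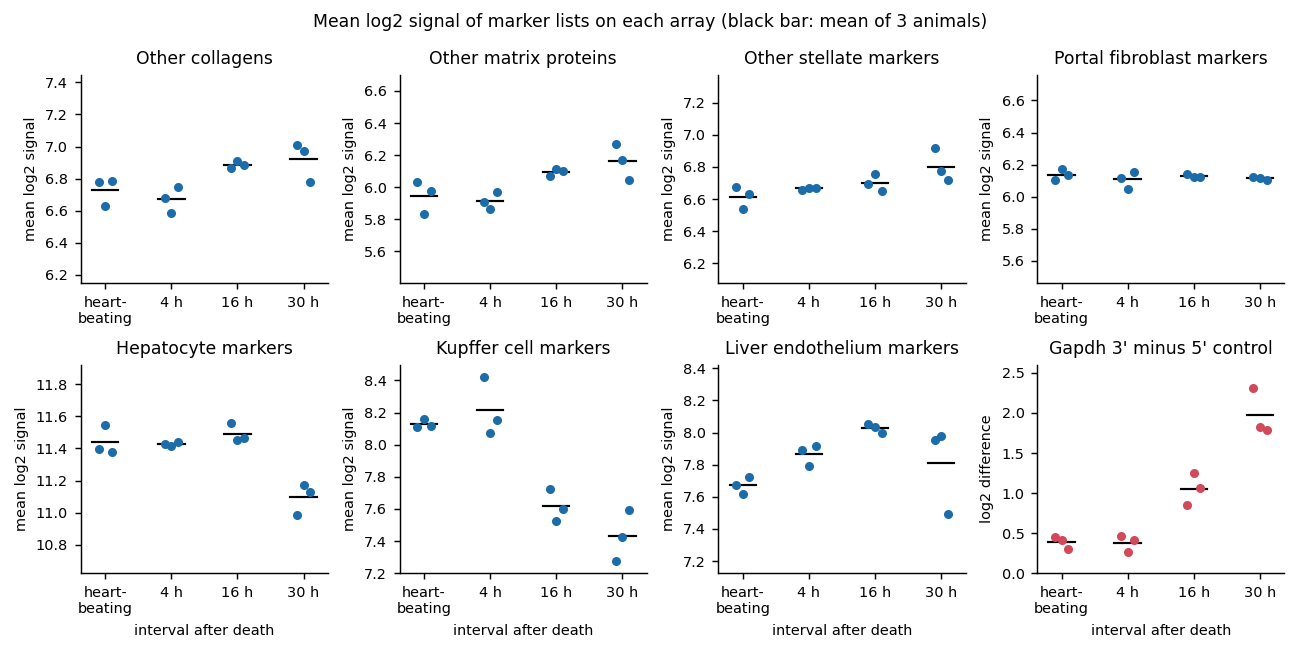
Mean log2 signal of 7 gene lists on each of the 12 arrays by interval after death, and the Gapdh 3' minus 5' log2 difference of the same arrays (last panel); black bars are means of 3 animals. The collagen and matrix means are higher at 16 and 30 h, the Kupffer cell mean is lower at those times, the hepatocyte mean is lower at 30 h, and the Gapdh difference widens from 16 h on.

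Markers of other liver cells changed over the same intervals. The mean log2 signal of the hepatocyte list, 17 probe sets of 12 genes, lay between 10.98 and 11.18 at 30 h and between 11.38 and 11.55 in heart-beating donors. At 30 h 5 of its probe sets were lower and 1 higher (35.3%, beside 19.7% of all). Cps1, of the urea cycle, was lower on a single probe set (-1.70) and not called on its other probe set. Asgr2 (-1.33) and Asgr1 (-1.14), of the asialoglycoprotein receptor, were lower, as was Apoa1 (-0.28). Hnf4a, a hepatocyte transcription factor, was lower on 1369289_at (-0.61), higher on 1392969_at (0.76) and not called on 1382496_at (-0.39). Ttr (-0.17) was not called. The list of Kupffer cells, which are liver macrophages, lay between 7.28 and 7.59 at 30 h and between 8.11 and 8.16 in heart-beating donors. At 30 h 10 of 14 probe sets were lower and 0 higher (71.4%, beside 19.7% of all). Among the lower were Cd68 (-0.87), Cd163 (-0.79), Adgre1 (-1.38), Cd5l (-1.18 and -0.87) and Cybb (-0.37 and -1.25). At 16 h 8 of 14 were lower (57.1%, beside 4.67% of all), among them Cd14 (-0.65), which had a difference of 0.00 at 30 h. Of 13 probe sets of the sinusoidal endothelium, neighbours of the stellate cell, 5 were higher at 16 h (38.5%, beside 4.67% of all) and 3 at 30 h (23.1%, beside 19.7% of all), with 0 lower. Lyve1, a hyaluronan receptor, was higher on both probe sets at 16 h (0.88 and 0.54) and at 30 h (0.49, adjusted p = 0.0211, and 0.41, adjusted p = 0.0405). Bmp2, a growth factor of these cells, was higher on 1398270_at at 16 h (0.54) and 30 h (0.48, adjusted p = 0.00705), and not on 1368945_at (0.43 and 0.08). Fcgr2b (0.78) and Stab2 (0.56), which take up ligands from blood, were higher at 16 h and had differences of 0.24 and -0.09 at 30 h. The defining genes Pecam1 (0.23), Kdr (-0.04 and -0.12) and Stab1 (0.00) were not called at 30 h. The red cell list rose on 4 of 6 probe sets at 30 h (66.7%, beside 19.7% of all). Hbb was higher by 1.89 (SE 0.32, adjusted p = 0.00113), Hba-a3 by 1.80, Alas2 by 2.45 and Ahsp by 0.66. Of 6 cholangiocyte and 12 smooth muscle probe sets, limma called 0 at 30 h against heart-beating donors, beside 19.7% of all. At an unadjusted p under 0.05, 0 passed, beside 31.6% of all. Differences were 0.04 for Krt19, -0.04 for Krt7, -0.04 for Epcam, -0.08 for Actg2 and 0.05 for Cnn1. These lists were faint: the brightest probe set lay below the median signal for 4 of 6 cholangiocyte and 4 of 7 smooth muscle genes. A lack of calls is therefore a weak reading of these cells. Signals on an array are relative to the rest of that array, and the part of these other cells in the marker results was not tested.

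Single animals weighed on the collagen results. Heart-beating donor 2 had the lowest signal of its group for 11 of 14 marker probe sets and for 5 of 5 collagen probe sets. Among the 30 h animals, number 1 was highest for 12 of 14 and number 3 lowest for 10 of 14 and for 5 of 5 collagen probe sets. The mean over the brightest probe set of each of the 10 genes was 7.31, 6.96 and 7.35 in heart-beating donors, 7.09, 7.01 and 7.21 in 4 h animals, 7.51, 7.59 and 7.49 in 16 h animals and 7.89, 7.66 and 7.45 in 30 h animals. Without heart-beating donor 2, 3 of 14 marker probe sets were called at 30 h against heart-beating donors, as also without 30 h animal 1, in place of 7. Against 4 h, 8 to 10 of 14 were called at 30 h whichever array was left out.

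Among 14207 other genes, those whose brightest probe set followed this 10-gene mean most closely over the 12 arrays were Nid1 (Pearson r = 0.971), Fbn1 (0.968), Col6a3 (0.963), Cyp4a1 (0.957) and Prkdc (0.956). The first 3 are matrix genes, Cyp4a1 is a fatty acid hydroxylase of the hepatocyte and Prkdc a DNA repair kinase. Cyp4a1 was higher at 30 h than in heart-beating donors by 0.36 (SE 0.09, adjusted p = 0.012) and Prkdc by 0.44 (SE 0.08, adjusted p = 0.00251). The 12 arrays share their normalization, their groups and the RNA quality difference above, so that these correlations describe likeness of pattern only.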

How the data were processed

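For 12 Affymetrix rat arrays the authors deposited log2 signals, 1 for each probe set; RMA and limma are named in the submitters' processing notes, without versions or settings. Array medians lay between 5.83 and 5.90, and values are relative within an array. The number of arrays limits the precision, and intensities have no count depth. After 57 control probe sets were set aside, 31042 were tested; 20826 carried 1 gene symbol in the platform annotation, 436 several and 9780 none.

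With limma 3.58.1 in R 4.3.3, 1 model over the 12 arrays gave each labelled group its own mean (8 residual and 4.93 prior degrees of freedom). A probe set was called at a Benjamini-Hochberg adjusted p under 0.05 over all probe sets, with no filter. All probe sets of the 10 genes are reported; from each gene list, up to 4 called genes with the smallest F test p and, for cell types, the first 3 genes are named where measured. Pdgfa, Pdgfd, Vim, Col16a1 and Col6a3 were named outside this rule. The members and lists were chosen with earlier results of these data known. Each array is a separate animal. The model was tested on simulated data. Alternatives were 3 normalizations, the upper 50% of probe sets by mean signal, 1 or averaged probe sets per gene, variance trend with robust settings, array weights, only the groups compared, no 30 h arrays, the Gapdh 3' minus 5' difference as a covariate, the animal number as a replicate block, and the omission of single arrays.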

Additional observations from a re-analysis of the deposited data

Results flagged for a closer look

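For 5 collagen probe sets and for Lum and Lrat the difference from heart-beating donors was below 0 at 4 h and above 0 later, and the later group differed from 4 h by limma. Against 4 h, Col3a1 was higher by 1.16 at 16 h and 1.36 at 30 h. Col1a2 was higher by 0.96 and 0.90 on 1370155_at and by 1.00 and 1.18 on 1387854_at. Col1a1 was higher by 0.64 and 0.79 on 1370864_at and by 0.55 and 0.39 on 1388116_at. Lrat was higher by 1.03 and 0.97, and Lum by 0.64 at 30 h. At 4 h itself 0 of these 7 probe sets differed from heart-beating donors at an adjusted p under 0.05. The probe sets were picked by the signs of their differences from heart-beating donors and by these calls, so their number describes the choice.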

How the results depend on the processing

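With 3 animals per group, signals that are relative to each array and probe sets such as Des and Lum near or below the array median, small differences are not resolved here. At 16 h against heart-beating donors the count of called marker probe sets was 1; it was 0 after cyclic loess or a further quantile normalization, 2 with array weights or without the 30 h arrays, and 0 to 2 when 1 array was left out. At 30 h against heart-beating donors it was 7; it was 4 with the mean of the probe sets of each gene (of 10 genes), 4 with array weights, 3 with only the groups compared, and 3 to 9 when 1 array was left out. At 16 h against 4 h it was 7, with 6 after cyclic loess or a further quantile normalization and 5 with variance trend and robust settings. It was 4 to 7 when 1 array was left out. At 30 h against 16 h it was 2, and 1 of 10 genes with the brightest probe set per gene. At 30 h against 4 h and in the F test it was 10, and 8 to 10 when 1 array was left out. With the Gapdh covariate it was 0 in every comparison. Of all probe sets, 4.19% were called with that covariate at 16 h against 4 h and 2.98% in the F test. The shares were 0.23% at 16 h against heart-beating donors and at most 0.029% in the other comparisons. The fit with the covariate keeps all arrays and probe sets and adds a model term. The cause of the changes under the normalizations, variance trend with robust settings, array weights and this covariate was not tested. The remaining settings enter fewer arrays or fewer probe sets.

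Signs turned mainly with that covariate, where standard errors were larger and 0 of the turned values was called. For 30 h minus heart-beating donors these values were -0.01 for Pdgfra, -0.13 for Pdgfrb 1391394_s_at, -0.42 and -0.30 for Col1a1, -0.55 and -0.47 for Col1a2, -0.51 for Col3a1, -0.0355 for Dcn, -0.75 for Lum and -0.27 for Lrat. For 30 h minus 4 h they were -0.017 for Pdgfra, -0.21 for Col1a1 1370864_at, -0.10 for Col1a2 1370155_at, -0.67 for Lum and -0.072 for Lrat, and for 16 h minus heart-beating donors -0.17 for Pdgfra, -0.043 for Col1a2 1387854_at, -0.39 for Lum and -0.10 for Des. Differences near 0 also turned: Pdgfra at 4 h was -0.0001 after median centring, and Pdgfrb 1391394_s_at was -0.0353 (mean of its probe sets) and -0.0295 (array weights) at 4 h and -0.0078 (array weights) at 30 h. When 1 array was left out, differences from heart-beating donors crossed 0 for Pdgfra (-0.0411 to 0.0516), Pdgfrb 1370642_s_at (-0.18 to 0.20), Pdgfrb 1391394_s_at (-0.0374 to 0.18), Colec11 (-0.028 to 0.11) and Lum (-0.23 to 0.0196) at 4 h, Pdgfrb 1370642_s_at (-0.33 to 0.0517) at 16 h, and Pdgfrb 1391394_s_at (-0.0171 to 0.20) and Des (-0.0907 to 0.0052) at 30 h.

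With the animal number as a replicate block, 6 of 14 were called at 30 h against heart-beating donors (Col1a2 1387854_at had an adjusted p of 0.0528) and 9 of 14 in the F test, with the same counts in the other comparisons. The numbers do not pair the animals: residuals of arrays with the same number correlated at -0.272 to 0.112 over 18 pairs, and 1 of 12 arrays correlated best with its own number. The F test has no value for only the groups compared or without the 30 h arrays.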

Other observations

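Genes that process and remodel collagen were called in both directions. Of 19 probe sets of 14 collagen-processing genes, 2 were higher and 3 lower at 30 h than in heart-beating donors (26.3%, beside 19.7% of all). Serpinh1, the collagen chaperone of the endoplasmic reticulum, was higher by 0.39 (SE 0.09, adjusted p = 0.00907) on 1371310_s_at, and Ppib, a prolyl isomerase, and Bmp1, a procollagen protease, were lower by -0.46 (SE 0.12, adjusted p = 0.014) and -0.30 (SE 0.09, adjusted p = 0.0387), Bmp1 on 1371127_at. Their second probe sets had differences of 0.11 for Serpinh1 and 0.18 for Bmp1, not called. Loxl2, which crosslinks collagen, was higher at 30 h than at 4 h by 0.73 (SE 0.15, adjusted p = 0.00351) on 1391450_at and had 0.17 on its second probe set, not called. Among 19 probe sets of 11 genes of matrix turnover, 1 was higher and 1 lower at 30 h than in heart-beating donors (10.5%, beside 19.7% of all). Timp3, an inhibitor of matrix proteases, was higher by 1.18 (SE 0.21, adjusted p = 0.00178) at 30 h on 1375138_at, and had differences of -0.08, 0.42 and 0.27 on its other probe sets. Plau, the urokinase gene, was lower by -0.34 (SE 0.08, adjusted p = 0.00936) on 1398287_at, with -0.23 and no call on the other. Timp2, of a related inhibitor, was lower at 30 h than at 4 h on 1386940_at, by -0.35 (SE 0.08, adjusted p = 0.00943), with -0.08 on its second probe set. Adamts1, a matrix protease, was higher at 16 h than in heart-beating donors by 0.80 (SE 0.18, adjusted p = 0.0254).

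In the pathway of transforming growth factor beta, the main fibrogenic signal to stellate cells, 17 probe sets of 10 genes were measured. At 30 h 2 were higher and 3 lower than in heart-beating donors (29.4%, beside 19.7% of all). Tgfbr1, a receptor, was higher by 0.38 (SE 0.10, adjusted p = 0.0222) on 1376636_at, with -0.05 and no call on the other, and Smad2, a signal transducer, was lower by -0.44 (SE 0.10, adjusted p = 0.00585). Smad3, its partner, was higher on 1389127_at (0.29) and lower on 1369528_at (-0.31). Of 15 lymphocyte probe sets 1 was lower (6.67%, beside 19.7% of all), that of Ptprc (-0.25), with -0.20 and no call on its second. Cd3d, Cd3e and Cd3g were not called. Of 8 mesothelial probe sets 1 was higher (Lrrn4, 0.26) and 1 lower (Wt1, -0.29), which is 25%, beside 19.7% of all. Other probe sets of these genes, Msln (0.01) and Upk1b (-0.03) were not called.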
